A study of Mus musculus with 6 samples.

Results

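The genes described here carry mouse Zfp symbols, Zfp followed by a number, and were detected on every array of an experiment on TM4 cells. They are the 278 genes, of 348 with a RefSeq mRNA probe on the array, for which at least 1 such probe was well above background on all 6 arrays. Detection on all 6 arrays chose them. The choice used no difference between arrays, but it kept out genes seen in only some of them. TM4 is an established mouse line of testicular somatic cells, widely used as a Sertoli cell model. The treated group held 3 samples of TM4 cells exposed to 10 µM 4-nitrophenol (PNP) for 24 h, and the untreated group held 3 samples of the same line kept for 24 h at 0 µM. PNP occurs in diesel exhaust and is a breakdown product of certain organophosphate insecticides. Total RNA of each sample was labelled with Cy3 and hybridised to 1 single-colour Agilent array. The labels do not say whether replicates were separate cultures, so the spread behind each p-value may be technical only.

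Values below are log2 of the scanner's processed signal minus the array's 75th percentile, so 0 marks that percentile and a difference of 1 is a 2-fold difference. Barcodes in the scanner headers, not the labels, placed the arrays at 2 positions on 3 slides. Position means the column in that barcode, and its row was not used. Position 2 held PNP replicates 1 and 3 and untreated replicate 2. Position 1 held PNP replicate 2 and untreated replicates 1 and 3. Slide 2 alone carried both groups (PNP replicate 1 and untreated replicate 3), slide 1 the other untreated and slide 3 the other PNP arrays. The groups therefore hold the positions unequally, and the difference of position 2 minus position 1 is given beside that of PNP minus untreated. Detection differed between arrays, with 47.8% to 57.8% of 56605 probes well above background per array, and no spot reached saturation. Of 17 Sertoli cell markers, 14 were above background on all 6 arrays, while Amh, Cldn11 and Fshr were above it on none. Of the other testis cell types, all 4 peritubular myoid markers were above background on all 6 arrays. None of the 5 Leydig cell markers on the array was above background on any array. Of 7 germ cell markers, Sycp3 was above background on 6 arrays, Zbtb16 on 5, Dazl on 1 and the other 4 (Ddx4, Kit, Stra8 and Prm1) on 0. The macrophage markers Csf1r and Cd68 were above background on 6 arrays, Adgre1 and Ptprc on 0. Of 4 endothelial markers, Pecam1 was above background on 2 arrays and the others on 0.

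Most Zfp genes encode proteins with Krüppel-type (C2H2) zinc fingers, short loops that hold a zinc ion and read a few bases of DNA each. Many of these proteins carry a KRAB domain, which recruits the co-repressor Trim28 and, through it, the histone methyltransferase Setdb1, and so silences retroelements and some imprinted loci. The Zfp symbol is historical and also covers activators of transcription and proteins that bind RNA, ribosomes or the mitotic spindle. Many Zfp genes lie in clusters that arose by repeated duplication. In the RefSeq gene order of GRCm38.p6, 145 of the 278 genes (52.2%) had another Zfp gene as their direct neighbour.

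The sequence before the start sites was read from RefSeq promoters of GRCm38.p6, which were at hand for 231 of the 278 genes (284 promoters). Median GC content in the 250 bases before the start was 54.0% in the Zfp genes detected throughout. It was 52.4% in all 32851 promoters, whether of detected genes or not. The median ratio of observed to expected CpG was 0.62 and 0.373. Zfp genes that missed the detection rule had medians of 52.8% and 0.586, so the CpG ratio is not particular to the detected genes. Each motif was searched as exact letters on both strands. A pattern taken from general knowledge as the core bound by Zfp143, a zinc finger activator that is itself among the 278 genes, and not checked against a motif collection, occurred in 2.82% of the Zfp promoters, against 0.262% of all promoters. The ETS core CCGGAAG was found in 15.1% against 6.91%, the GC box GGGCGG in 43.7% against 32.7%, and CCAAT in 46.5% against 33.8%. The TATA box letters TATAAA were found in 6.34% against 12.4%. In 68 promoters of Zfp genes that missed the detection rule, the shares were 2.94% for the Zfp143 core (2 promoters) and 26.5% for the ETS core. They were 33.8% for the GC box, 44.1% for CCAAT and 10.3% for TATAAA. The shares of the Zfp143 core, the ETS core and CCAAT are therefore not particular to the detected genes.

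The 8 promoters with the Zfp143 core are shown because they hold the motif whose share was highest relative to all promoters. Each is the last 100 bases before the start, written 5′ to 3′ in the direction of transcription, with this pattern, called the Zfp143 core here, in capitals, spelled as searched in Zfp692 and Zfp933 and as its reverse complement in the other lines.
Zfp1 (GRCm38.p6, chr8:111643343-111643442, plus strand): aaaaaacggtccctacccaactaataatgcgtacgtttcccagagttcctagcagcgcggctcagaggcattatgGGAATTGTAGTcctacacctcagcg
Zfp108 (GRCm38.p6, chr7:24254694-24254793, plus strand): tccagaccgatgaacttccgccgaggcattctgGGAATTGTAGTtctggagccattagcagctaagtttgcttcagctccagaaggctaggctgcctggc
Zfp128 (GRCm38.p6, chr7:12881078-12881177, plus strand): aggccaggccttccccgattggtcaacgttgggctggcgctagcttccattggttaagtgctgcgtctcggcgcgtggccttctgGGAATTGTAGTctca
Zfp180 (GRCm38.p6, chr7:24081797-24081896, plus strand): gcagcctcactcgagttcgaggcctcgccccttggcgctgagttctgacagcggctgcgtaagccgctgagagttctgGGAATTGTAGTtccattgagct
Zfp58 (GRCm38.p6, chr13:67500523-67500622, minus strand): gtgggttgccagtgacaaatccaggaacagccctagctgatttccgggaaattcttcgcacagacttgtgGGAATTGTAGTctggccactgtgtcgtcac
Zfp692 (GRCm38.p6, chr11:58306969-58307068, plus strand): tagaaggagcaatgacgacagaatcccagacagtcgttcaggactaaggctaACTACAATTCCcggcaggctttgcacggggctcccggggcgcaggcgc
Zfp93 (GRCm38.p6, chr7:24270318-24270417, plus strand): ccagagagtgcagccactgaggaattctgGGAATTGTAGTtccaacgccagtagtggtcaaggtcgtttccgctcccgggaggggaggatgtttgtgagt
Zfp933 (GRCm38.p6, chr4:147848419-147848518, minus strand): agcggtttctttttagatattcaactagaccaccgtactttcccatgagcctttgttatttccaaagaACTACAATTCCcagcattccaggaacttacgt

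In 6 of the 8 promoters the core stood on the opposite strand. Its first base lay between 15 and 71 bases before the start. Zfp143 itself had levels of -0.22, -0.39 and -0.05 in PNP cells and -0.17, 0.13 and -0.31 in untreated cells, with overlapping groups and a difference of -0.10 ± 0.21 (SE). The 8 genes with the core, named for that motif, had PNP differences from -0.46 for Zfp93 to 0.25 for Zfp180. None of the 8 had an unadjusted p under 0.05 for PNP in limma, against 6.93% of all units higher and 3.07% lower. For named RefSeq mRNAs above background on all 6 arrays the shares were 2.79% and 2.51%. So few genes cannot tell 0 from those shares. Between positions Zfp58, Zfp93 and Zfp108 were lower in position 2, with differences of -0.59, -0.49 and -0.47 (limma, unadjusted p = 0.0167, 0.0238 and 0.0277, adjusted p = 0.142, 0.168 and 0.182). Of all units, 9.36% were lower in position 2 at an unadjusted p under 0.05 (limma). Zfp93 and Zfp108 lie close together on chromosome 7, as the coordinates above show.

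The first comparison asked which of these genes differed between PNP-treated and untreated TM4 cells. None of the 278 Zfp genes passed (limma, adjusted p under 0.05 over all 21818 genes and unnamed transcripts), against 0% of all units. Differences ran from -0.61 to 1.06, with a median of -0.06, against -0.04 over all units and -0.10 over 12028 named RefSeq mRNAs that were above background on all 6 arrays. The difference was above 0 for 124 Zfp genes (44.6%), against 44.9% of all units and 35.3% of the named mRNAs. At an unadjusted p under 0.05, 17 Zfp genes were higher with PNP and 7 were lower (limma). That is 6.12% and 2.52% of the Zfp genes. The background was 6.93% of all units on the higher side and 3.07% on the lower side, and among the named mRNAs it was 2.79% and 2.51%. PNP and untreated arrays did not overlap for 22 genes that were higher, against 7.69% of all units, and for 23 that were lower, against 7.88%. These were 7.91% and 8.27% of the Zfp genes, against 4.44% and 9.11% of the named mRNAs. The higher count was 7 without untreated replicate 1 and 26 without untreated replicate 3. The lower count was 1 without untreated replicate 1, 2 without PNP replicate 3 and 11 without untreated replicate 2. For all units such counts were not made with an array left out. In these bulk samples fewer cells that express a gene and less RNA per cell cannot be told apart.

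**Figure D1:**
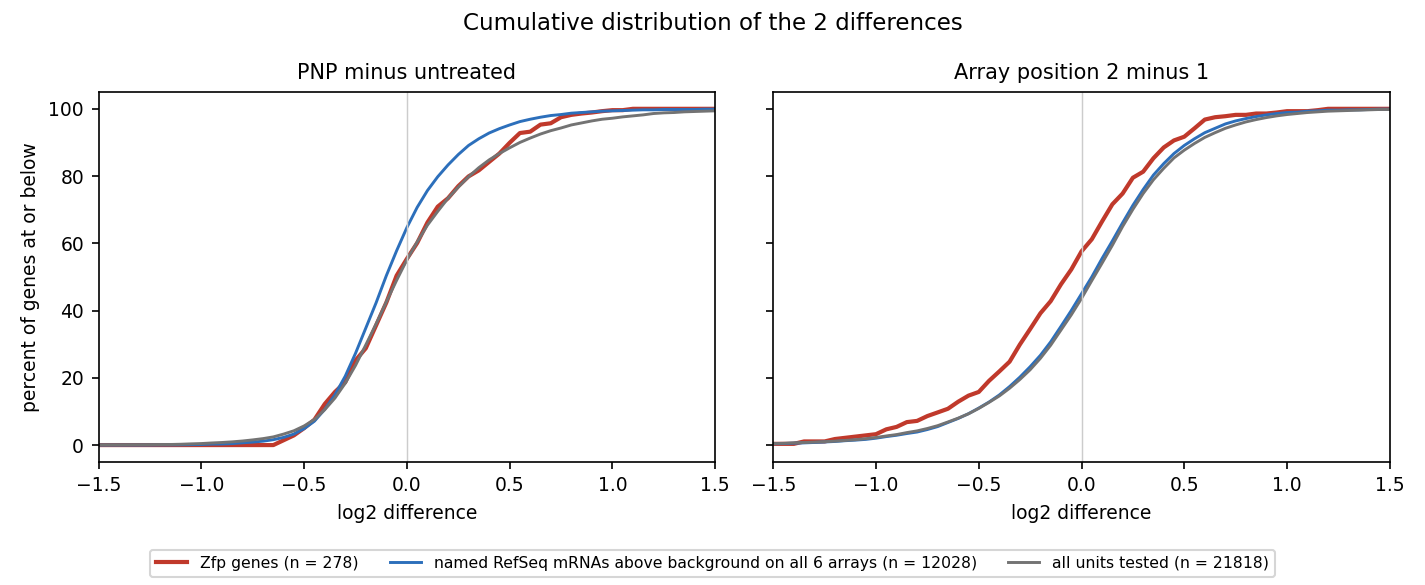
Cumulative distributions of the log2 difference (x axis) for PNP minus untreated on the left and array position 2 minus 1 on the right, with the percent of genes at or below each value on the y axis. For PNP the curve of the 278 Zfp genes runs along that of all 21818 units (medians -0.06 and -0.04), and for position it lies to the left of it (medians -0.08 and 0.06).

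Zfp182, an X-linked zinc finger gene singled out earlier for its difference in these data, had the highest PNP difference of the set. Its levels were -2.70, -2.64 and -2.74 in the PNP samples and -3.76, -3.82 and -3.70 in the untreated samples. The 3 treated samples lay above the 3 untreated ones. All 3 untreated levels were near the detection limit, below the mean levels of the dimmest members (-3.68 for Zfp26 to -3.62 for Zfp418). Some genes just outside the detection rule had similar mean levels, such as -3.67 for Zfp652 and -3.78 for Zfp273. The spread within each Zfp182 group was small, with means of -2.69 ± 0.05 and -3.76 ± 0.06 (SD, n = 3 each). The difference was 1.06 ± 0.18 (SE) and did not pass the test over all units (limma, unadjusted p = 0.000325, adjusted p = 0.182). It was 1.09 within position 1 and 1.10 within position 2, and 0.99 with slide as a fixed block, which rests on the arrays of slide 2 (limma, adjusted p = 0.791). After normexp background correction with an offset of 50 it was 0.22 (limma, adjusted p = 0.754). With array weights it passed at 1.07 (limma, adjusted p = 0.0167), in a fit that weighted untreated replicate 1 at 9.7. The other Zfp182 probe failed the background criterion on all 6 arrays.

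After Zfp182, the highest differences were those of Zfp663 and Zfp266. Zfp663 had 5.68, 6.36 and 6.80 with PNP and 5.06, 5.35 and 5.52 without, a difference of 0.97 ± 0.30 (SE). Zfp266 had -0.44, -0.47 and -0.41 with PNP and -1.72, -1.36 and -1.08 without. Neither gene's groups overlapped. The Zfp266 difference was 0.95 ± 0.22 at this probe and 0.14 at its next probe (limma, unadjusted p = 0.00235 and adjusted p = 0.283 at the brightest).

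Zfp148, a factor that binds GC-rich promoter elements, had 0.52, 0.30 and 0.15 with PNP and -0.65, -1.22 and 0.19 without. Untreated replicate 3 lay within the range of the treated arrays, and the difference was 0.88 ± 0.34 (SE), with 0.22 at the next probe. Zfp185, a LIM domain protein of the actin cytoskeleton, had -2.77, -2.63 and -2.06 with PNP and -3.70, -3.35 and -2.88 without. Its groups did not overlap, with a difference of 0.83 ± 0.29. Zfp81 had -2.21, -1.85 and -1.78 with PNP and -2.79, -2.61 and -2.77 without, also with no overlap, and a difference of 0.78 ± 0.21. Zfp91, a ubiquitin ligase of the non-canonical NF-kB pathway, had -1.06, 0.01 and -0.04 with PNP and -1.14, -1.56 and -0.70 without. PNP replicate 1 lay among its untreated arrays, and the difference of 0.77 ± 0.34 became 0.97 ± 0.30 with position in the model. None of these genes passed (limma, adjusted p from 0.298 for Zfp81 to 0.503 for Zfp91).

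On the lower side the 8 largest differences were close together, from -0.61 to -0.57. Zfp787 had 0.10, -0.35 and -0.01 with PNP and 0.55, 0.60 and 0.42 without, a difference of -0.61 ± 0.21 (SE). Zfp316 had 1.05, 0.61 and 0.97 with PNP and 1.54, 1.71 and 1.21 without, a difference of -0.61 ± 0.23, and its next probe had -0.76. Zfp428 had 2.38, 3.01 and 2.83 with PNP and 3.70, 3.18 and 3.14 without, a difference of -0.60 ± 0.25, with -0.58 at its next probe. In these 3 genes and in Zfp629 (-0.57 ± 0.23) the treated arrays lay below the untreated ones at the brightest probe. The next probes of Zfp787 and Zfp629 had -0.14 and -0.01. For Zfp513 (-0.60), Zfp839 (-0.57), Zfp566 (-0.61) and Zfp446 (-0.58) the groups overlapped. Zfp839 was set by untreated replicate 3, at -1.91 against -3.34 and -2.86 in the other untreated samples and -3.22, -3.40 and -3.20 with PNP. Zfp566 and Zfp446 were past the test between positions, and with position in the model their PNP differences were -0.26 and -0.25.

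**Figure D2:**
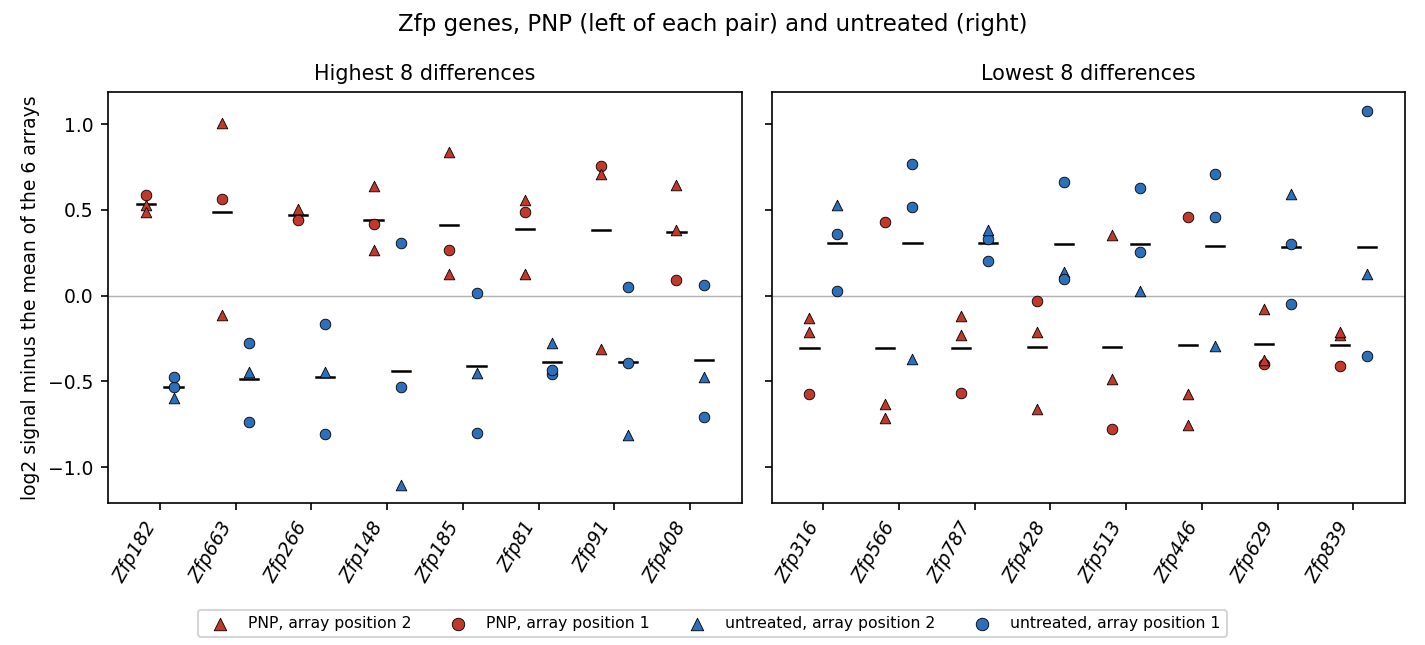
Log2 signal of each array minus the mean of the 6 arrays (y axis) for the 8 Zfp genes with the highest and the 8 with the lowest PNP difference, with PNP left of untreated in each pair. Points are arrays, triangles array position 2 and circles position 1, and bars are group means. Zfp182 has the tightest groups, while Zfp566 and Zfp446 divide by array position.

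With position added to the model, still 0 of the 278 genes passed for PNP, against 0% of all units. At an unadjusted p under 0.05 there were 32 higher, against 8.38% of all units, and 13 lower, against 5.34% (limma). These were 11.5% and 4.68% of the Zfp genes. Among the named mRNAs the shares were 4.41% and 5.18%. The interaction of treatment and position had an adjusted p under 0.05 for 0 genes, against 0% of all units, and an unadjusted p under 0.05 for 1, against 1.6% (limma).

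By role, repressors of imprinted loci and retroelements came first. Of 10 on the list, 9 were detected throughout, all but Zfp977. Their PNP differences were above 0 for 4 and below 0 for 5, with a median of -0.16. At an unadjusted p under 0.05 there were 0 (limma), against 6.93% of all units higher and 3.07% lower. For the named mRNAs the shares were 2.79% and 2.51%. A list of 9 genes is too short to tell 0 from those shares. Zfp57, which keeps methylation at imprinting control regions, had 0.78, 0.80 and 0.73 with PNP and 0.75, 0.95 and 0.43 without, with overlapping groups and a difference of 0.06 ± 0.21 (SE). Its partner in imprint maintenance, Zfp445, had 0.45, 0.41 and -0.57 with PNP and -0.40, -0.59 and 0.05 without. The difference was 0.41 ± 0.32 at this probe and -0.07 at the next. Zfp809, which recognises the primer binding site of murine leukaemia viruses, had 0.48, 0.06 and 0.46 with PNP and -0.25, 0.37 and -0.53 without. These groups overlapped too, at 0.47 ± 0.27, with 0.61 at the next probe. Zfp568, a repressor of a placental Igf2 transcript, had -0.18 ± 0.25, and 0.24 at its next probe. The retroelement repressor Zfp932 had -0.16 ± 0.21, and 0.67 at its next probe, so neither gene has a single direction. Zfp708, another such repressor, had -0.27 ± 0.19. For Zfp819, Zfp961 and Zfp27 the PNP differences were 0.04, -0.23 and -0.29.

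Between positions this group had a median of -0.26, with 1 member higher and 3 lower at an unadjusted p under 0.05 (limma), against 11.1% and 9.36% of all units, and 0 past the adjusted threshold. Zfp809 was the higher one, at 0.59 ± 0.19 (SE), and the lower ones were Zfp961 at -0.64 ± 0.19, Zfp568 at -0.48 ± 0.20 and Zfp27 at -0.46 ± 0.19. At their next probes the position differences were 0.38 for Zfp809, -1.16 for Zfp961, -0.05 for Zfp568 and 0.02 for Zfp27.

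Of 20 activators and developmental factors, 15 were detected throughout, and Zfp423, Zfp521, Zfp536, Zfp704 and Zfp711 were not. Their median PNP difference was -0.04. At an unadjusted p under 0.05 (limma) 2 of the 15 were higher, Zfp148 and Zfp263, against 6.93% of all units. None of the 15 was lower, against 3.07%. For the named mRNAs these shares were 2.79% and 2.51%. Zfp263 had 0.90, 1.38 and 1.15 with PNP and 0.54, 0.58 and 0.70 without. Its groups did not overlap, with a difference of 0.54 ± 0.21 (SE), but its next probe had -0.02. Zfp703, a repressor studied in breast epithelium, had 1.79, 2.06 and 2.07 with PNP and 2.69, 2.16 and 2.33 without, also separate, with a difference of -0.42 ± 0.22 (limma, adjusted p = 0.559). The other 12 detected members ran from -0.41 for Zfp384 to 0.33 for Zfp653. Zfp281, a regulator of pluripotency genes, and Zfp770 stood out between positions, at -1.24 ± 0.27 and -1.01 ± 0.20 (limma, adjusted p = 0.0587 and 0.0514).

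All 14 listed proteins of RNA, ribosomes, mitosis and ubiquitin were detected throughout. With PNP, 5 had a difference above 0 and 9 below, with a median of -0.11. Again 0 had an unadjusted p under 0.05 (limma), against 6.93% of all units higher and 3.07% lower. The named mRNAs had shares of 2.79% and 2.51%. A list of 14 genes is also too short to tell 0 from those shares. Zfp598, which marks collided ribosomes with ubiquitin, had 1.69, 1.60 and 1.73 with PNP and 2.17, 1.96 and 2.07 without. Its groups were separate, with a difference of -0.39 ± 0.19 (SE; limma, adjusted p = 0.532). Zfp36, tristetraprolin, which destabilises messages with AU-rich elements, had -0.18, -0.84 and -0.49 with PNP and -0.68, -0.15 and -0.18 without. Those groups overlapped, at -0.17 ± 0.25. Zfp622, a factor of 60S ribosome assembly, had -0.26 ± 0.23, and Zfp207, which loads a spindle checkpoint protein at kinetochores, had -0.20 ± 0.23. Zfp706 had 4.56, 4.47 and 4.57 with PNP and 4.86, 4.82 and 4.75 without. Its groups were separate by a small margin, with a difference of -0.27 ± 0.18 (limma, adjusted p = 0.644). Zfp830 had 0.62 ± 0.35, and 0.88 ± 0.26 with position in the model. The double-stranded RNA binding protein Zfp346 had -0.14, and Zfp106, Zfp326, Zfp330, Zfp593 and Zfp871 ran from -0.52 for Zfp593 to 0.36 for Zfp871.

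The second comparison set arrays of position 2 against position 1 with treatment in the model. Here 8 of the 278 genes passed (limma, adjusted p under 0.05 over all units), or 2.88%, against 2.59% of all units and 2.52% of the named mRNAs. On the higher side 2 passed, against 1.12% of all units, and on the lower side 6, against 1.47%. At an unadjusted p under 0.05, 20 were higher, against 11.1% of all units, and 41 were lower, against 9.36% (limma). These were 7.19% and 14.7% of the Zfp genes, against 11.4% and 10.2% of the named mRNAs. The positions did not overlap for 19 genes on the higher side, against 11.6% of all units, and 46 on the lower side, against 10.8%. These were 6.83% and 16.5% of the Zfp genes, against 11.5% and 13.3% of the named mRNAs. The median over the Zfp genes was -0.08, against 0.06 over all units and 0.05 over the named mRNAs. The difference was above 0 for 118 Zfp genes (42.4%), against 56.4% of all units and 55% of the named mRNAs. In all, 11 of the 278 genes differed by 2-fold or more, 2 of them higher and 9 lower. Over all 21818 units 870 did, 377 higher and 493 lower. A difference of -1 or lower was found in 3.24% of the Zfp genes and 2.26% of all units. The 8 calls became 0 without untreated replicate 1, untreated replicate 2, untreated replicate 3, PNP replicate 2 or PNP replicate 3, and 16 without PNP replicate 1. The unadjusted count of 41 was 19 without untreated replicate 2 and 24 without PNP replicate 2, and that of 20 was 9 and 6. Counts over all units were not made with an array left out. The labels say nothing about how arrays were assigned to positions.

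Zfp672 had the largest position difference. Its levels were -2.51, -2.45 and -3.04 in position 2 (PNP 1, PNP 3 and untreated 2) and -1.03, -1.27 and -1.15 in position 1 (PNP 2, untreated 1 and untreated 3). All position 2 arrays were lower, by a fitted -1.64 ± 0.19 (SE; limma, adjusted p = 0.0177). The difference was -1.45 among PNP arrays and -1.83 among untreated arrays, and that of PNP minus untreated was -0.17 ± 0.56.

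Zfp959 had -1.56, -1.58 and -1.78 in position 2 and -0.04, -0.57 and -0.53 in position 1, in the same order of arrays. It was lower in position 2 by a fitted -1.38 ± 0.18 (SE; limma, adjusted p = 0.0205). Zfp638, a nuclear protein known in human cells to silence unintegrated retroviral DNA with the HUSH complex, had 0.46, 0.15 and -0.68 in position 2 and 1.66, 0.71 and 0.66 in position 1. The positions did not overlap, and its fitted difference was -1.36 ± 0.18 (limma, adjusted p = 0.0213), with -0.86 at its next probe. For this gene the PNP difference was 0.53 ± 0.48, and 0.98 ± 0.18 with position in the model (limma, unadjusted p = 0.000902, adjusted p = 0.164). Its next probe had a PNP difference of -0.05.

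Zfp202, whose human counterpart represses genes of lipid metabolism, had -2.44, -2.44 and -2.13 in position 2 and -1.02, -0.84 and -1.45 in position 1. Zfp566 had -1.91, -1.99 and -1.65 in position 2 and -0.85, -0.51 and -0.76 in position 1. Zfp446 had -2.82, -2.64 and -2.36 in position 2 and -1.61, -1.36 and -1.61 in position 1. In all 3 genes every position 2 array was lower, by a fitted -1.20 ± 0.23, -1.06 ± 0.18 and -0.99 ± 0.19 (SE; limma, adjusted p = 0.0473, 0.0361 and 0.0455).

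Only Zfp654 and Zfp383 passed on the higher side. Zfp654 had -2.47, -2.38 and -2.09 in position 2 and -3.52, -3.25 and -3.53 in position 1. Its fitted difference was 1.19 ± 0.19 (SE; limma, adjusted p = 0.0306), and its next probe had 1.13. Zfp383 had -0.52, -0.64 and -0.46 in position 2 and -1.58, -1.59 and -1.79 in position 1, with a fitted difference of 1.11 ± 0.18 (limma, adjusted p = 0.0330). In both genes all position 2 arrays lay above all position 1 arrays, in treated and in untreated cells.

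**Figure D3:**
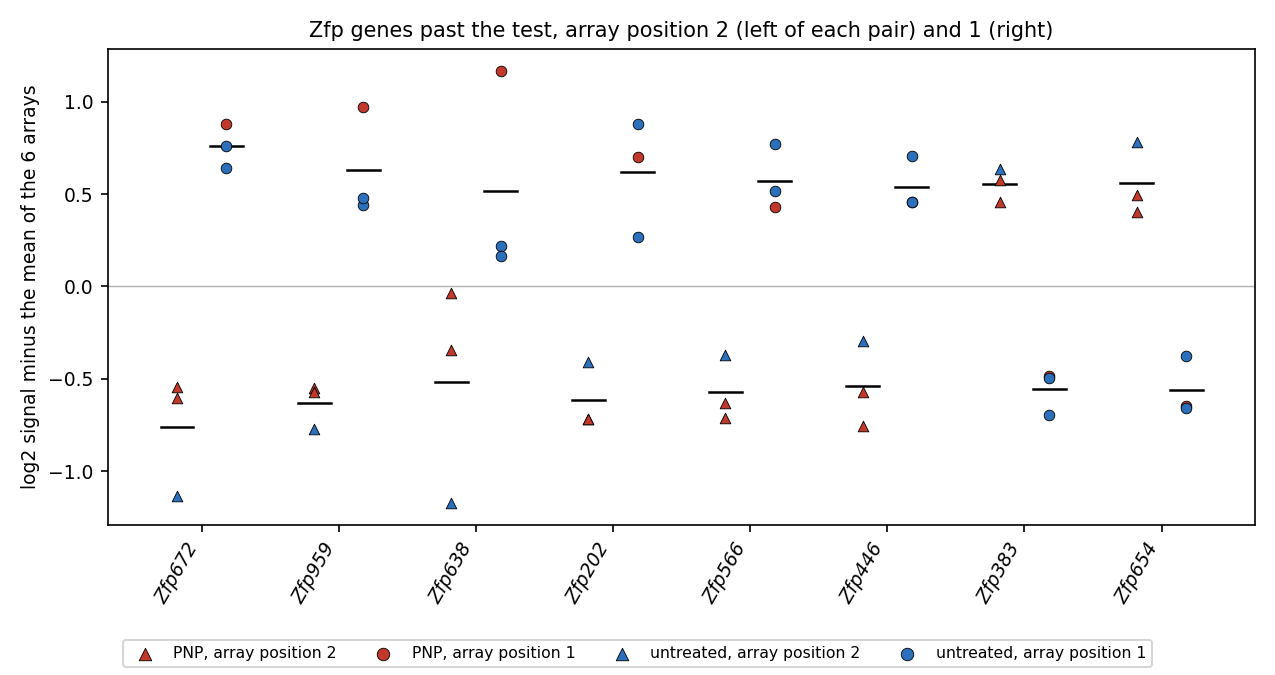
Log2 signal of each array minus the mean of the 6 arrays (y axis) for the 8 Zfp genes with an adjusted p under 0.05 between positions, with position 2 left of position 1 in each pair. Points are arrays, red for PNP and blue for untreated, and bars are position means. Positions do not overlap in any of the 8 genes, and in 6 of them position 2 is the lower one.

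Past the 2-fold mark but not the test were Zfp281 and Zfp770, given above, Zfp719, at -1.18 ± 0.44 (SE; limma, adjusted p = 0.192; 0.00 at its next probe), and Zfp213, at -1.14 ± 0.24 (limma, adjusted p = 0.0539). Zfp213 was named after its value was seen, to complete the count. Below it, Zfp467, which steers mesenchymal cells to fat rather than bone, had 1.49, 1.95 and 2.16 in position 2 and 0.85, 1.28 and 0.97 in position 1. All position 2 arrays were higher, by 0.95 ± 0.21. Of its other probes, 1 had 0.94 and 1, for another transcript accession, had -0.57. Zfp524 had 0.93 ± 0.20 and Zfp784 0.81 ± 0.22. Zfp235 had 0.75 ± 0.28, which was 0.24 without PNP replicate 2 and 1.25 without untreated replicate 2. Zfp593, the counterpart of a yeast factor of ribosome export, had 0.35, 0.45 and 0.52 in position 2 and 1.14, 1.48 and 1.49 in position 1. Its positions were separate, at -0.86 ± 0.18 (limma, adjusted p = 0.0531). Zfp386 has no value for untreated replicate 3, where its only spots were marked as outliers, and was fitted on the other 5 arrays.

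Other probes of the same genes give a check that the choice of the brightest probe did not use. Of the 278 genes, 185 had 1 probe above background on all 6 arrays, 79 had 2 and 14 had 3 or more. For the 93 genes with 2 or more, the brightest and next probe had the same sign of the PNP difference in 59 genes. The sign of the position difference was the same in 64. Across the 93 genes the differences at these probes correlated at 0.24 for PNP and 0.51 for position. The spread between a gene's probes had a median of 0.28 for PNP and 0.27 for position. Among genes with an unadjusted p under 0.05 (limma), the next probe had the same sign in 9 of 14 for PNP and in 17 of 20 for position. It reached at least 0.5 times the size in 3 of 14 and in 13 of 20. Because these genes were picked by the p at the brightest probe, smaller values at the next one are favoured in both comparisons.

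**Figure D4:**
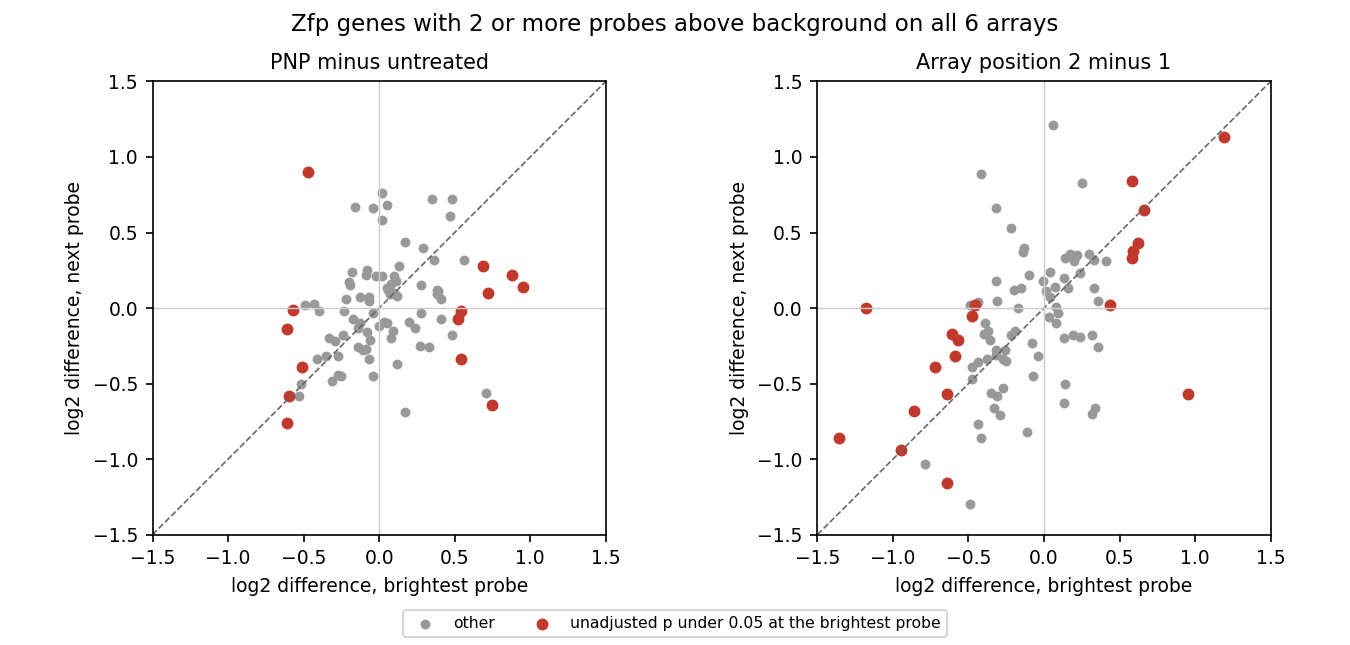
Log2 difference at the brightest probe (x axis) and at the next probe (y axis) of the 93 Zfp genes with 2 or more probes above background on all 6 arrays, for PNP minus untreated on the left and array position 2 minus 1 on the right. Red points had an unadjusted p under 0.05 at the brightest probe (limma), and the dashed line marks equal values. For PNP 9 of 14 red points have the same sign at both probes, and for position 17 of 20.

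Probes disagreed most for Zfp408, whose human counterpart is mutated in a familial retinal disease. At its brightest probe it had 3.04, 2.75 and 3.30 with PNP and 1.95, 2.18 and 2.72 without. The groups did not overlap, with a difference of 0.75 ± 0.26 (SE), but the next probe had -0.64. In Zfp791 the signs were the other way round, at -0.47 ± 0.20 for the brightest probe and 0.90 for the next. Zfp608 had 0.71 and -0.56, Zfp709 0.54 and -0.34, and Zfp626 0.17 and -0.69. Differences of these 5 genes cannot be given a single direction from the array.

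Clustered genes were set beside the rest, since near-identical copies may share a probe's signal. Genes next to another Zfp gene had a median PNP difference of -0.04, against -0.06 for the other 133 genes. The medians between positions were -0.09 and -0.07. Of 86 pairs of adjacent detected genes, 52 had the same sign for PNP and 53 for position. The same count was not made for pairs that are not adjacent. Hybridisation of a probe to paralogous transcripts was not tested.

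A list of co-repressors and heterochromatin proteins, which also holds other DNA-binding zinc finger factors such as Sp1, Yy1 and Ctcf, gave 41 tested genes. It has 43 symbols for 42 genes, since Fam208a is an older name of Tasor. Their median PNP difference was -0.16, and 0 passed the test over all units. At an unadjusted p under 0.05 there were 4 higher, against 6.93% of all units, and 2 lower, against 3.07% (limma). All 41 were above background on all 6 arrays, and for the named mRNAs so detected the shares were 2.79% and 2.51%. The higher ones were the methyltransferase Setdb1 at 0.89, the HUSH subunit Mphosph8 at 0.57, and the transcription factors Sp1 at 1.13 and Yy1 at 0.63. The lower ones were Mbd3, a subunit of the NuRD complex, at -0.53 and the maintenance DNA methyltransferase Dnmt1 at -0.54. Setdb1 had -1.01, 0.26 and -0.11 with PNP and -1.17, -1.71 and -0.65 without, with overlapping groups. Trim28 itself had 3.40, 3.25 and 3.55 with PNP and 3.93, 3.78 and 3.69 without. Its groups did not overlap, with a difference of -0.40 (limma, unadjusted p = 0.0747, adjusted p = 0.535). Between positions 3 of the list were higher, against 11.1% of all units, and 7 lower, against 9.36%, at an unadjusted p under 0.05 (limma), and 0 passed.

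The other 70 Zfp genes with a probe were not detected throughout. Of these, 33 were above background on no array and 37 on 1 to 5 arrays. For 10 the best probe was above background on 5 of the 6. Closest to the rule on the inside were the dimmest of the 278 genes, Zfp26, Zfp184, Zfp282 and Zfp418, with mean levels from -3.68 to -3.62. Among the 10 just outside, differences ran from -0.54 for Zfp105 to 1.09 for Zfp868. Zfp868 had -3.18, -2.47 and -2.71 with PNP and -3.86, -4.46 and -3.31 without, and its next probe differed by -0.17. Zfp105 had -3.68, -3.15 and -4.46 with PNP and -2.95, -3.83 and -2.88 without. Zfp970 had -3.02, -2.39 and -2.98 with PNP and -3.38, -4.16 and -2.91 without. Of the 10 genes above background on 5 arrays, 9 were so on all 3 PNP arrays and 1 on all 3 untreated arrays. The same counts over all units were not made, so no share stands beside these, and detection differed between arrays.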

How the data were processed

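6 single-colour arrays were used, 3 PNP and 3 untreated, grouped by the labels. Per the file headers, the deposited intensity values come from Agilent Feature Extraction 11.5.1.1 (10.7 per the submitters' processing notes): signals after background subtraction, with no scaling between arrays. The authors' deposited log2 table, whose normalization was read from its values, served as an alternative.

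Outlier spots and 3671 control spots were left out and log2 signals averaged per probe (56605 probes), and the 75th percentile of each array was set to 0. A probe entered when 1 group or both had it well above background on all 3 arrays, with at most 1 missing array. The brightest probe stood for a gene. Accessions were matched to RefSeq names of GRCm38.p6. The headers name another build, so no coordinates of probes are given. Genes could not be grouped by KRAB domain or finger number, since no protein sequences were used here.

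limma 3.58.1 in R 4.3.3 (lmFit, eBayes, two-sided) was fitted to all 21818 units, with Benjamini-Hochberg adjustment and a threshold of 0.05. The number of arrays limits the precision. In 5 simulated runs with 200 changed of 21731 units, differences of 0.5, 1, 2 and 3 were recovered in 1.2%, 45.2%, 97.2% and 100% for PNP and in 0%, 36%, 98% and 100% for position. The sizes were mixed, and false calls were 9.2 and 10.8 per run. The simulated spread was what the model with position left over, and no position difference was simulated. The PNP fit has no position term, so recovery for PNP may be lower in the real arrays than given here.

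The members and all lists were chosen with earlier results of these data known. Genes set for naming were Zfp182, the 8 highest and 8 lowest PNP differences, and the 6 highest and 6 lowest position differences. To these came the 6 brightest and 4 dimmest members, the 5 widest probe spreads, and every detected gene of 3 role lists. Co-repressors with an unadjusted p under 0.05 (limma) were also set. Several activators were given only within a range. The bright members Zfp628 and Zfp764 were not described above, with PNP differences of -0.20 ± 0.21 and 0.20 ± 0.22 (SE). Trim28, Zfp213, Zfp386, genes just outside the rule and genes with the Zfp143 core were named besides. Same-numbered replicates deviated oppositely, with correlations of -0.409, -0.552 and -0.406 across units. Each such pair sat at opposite array positions, so these values cannot tell whether the numbers pair samples. The labels give no pairing, and none was used in the main fits. Alternatives covered background correction, scaling, filters, variance model, array weights, blocks, probe choice, the authors' values and leaving out each array.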

Additional observations from a re-analysis of the deposited data

How the results depend on the processing

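For PNP the count of 0 Zfp genes past the test held in every alternative run except array weights, with 15, and the fit within array position 1, with 1 (Zfp939), and it was 0 to 0 with each array left out. The median PNP difference of -0.06 was -0.16 with median centring, 0.02 with a percentile taken over fully detected probes, 0.02 with slide as a fixed block and 0.01 within array position 1, and -0.07 to 0.02 without each array. Median centring moved the median of all units from -0.04 to -0.14, so the Zfp genes moved with it. It also turned the unadjusted counts to 8 higher and 23 lower, and the other percentile gave 23 and 2. Over all units median centring gave 1047 and 1639, and the other percentile 1942 and 403, against 1511 and 670 in the main fit. Zfp182 passed only with array weights, at 1.07, and ran from 1.04 to 1.10 without each array. How many of all units passed for PNP with array weights was not counted.

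The 8 calls between positions were 16 with normexp, 14 with quantile normalization, 0 with no filter, 16 with only probes above background on all arrays, 18 with a robust variance trend, 69 with array weights, 36 with slide as a fixed block, 45 with slide as a random block, 13 in the authors' table, 2 within untreated arrays and 0 within PNP arrays. Without each array they were 0 to 16. Over all units the 566 calls of the main fit were 1163 with normexp, 781 with quantile normalization and 0 with no filter. They were 910 of 19563 with only probes above background on all arrays, 1388 with a robust variance trend and 762 in the authors' table. Counts over all units were not made with array weights, slide blocks, within 1 group or without each array. All 8 genes were also called with quantile normalization, the robust trend, array weights, both slide blocks and the authors' table, and 7 with normexp. With treatment left out of the model 7 of the 8 were called, and with the replicate number as a block 3. The median of -0.08 was -0.01 with normexp, -0.13 with the other percentile, -0.03 with array weights and -0.04 within untreated arrays, and -0.10 to -0.03 without each array. The fits within 1 group or position hold 3 arrays and lean on a spread from 1 pair. The cause of these moves was not tested.

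With the replicate block, 0 Zfp genes passed for PNP, and Zfp182 had 1.06 (limma, adjusted p = 0.437). Between positions 4 genes passed, 3 of them called in the main fit. Normexp together with a position block, added after the data were seen, gave 0 genes for PNP and 0.17 for Zfp182. The number of arrays limits the precision.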
